A study of Mus musculus with 6 samples.

Results

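The genes described here encode the muscle acetylcholine receptor and the proteins that gather it under the nerve terminal. They were 10 in number, namely the receptor subunits Chrna1, Chrnb1, Chrnd, Chrne and Chrng, the organisers Musk, Lrp4, Dok7 and Rapsn, and acetylcholinesterase (Ache). The genes were chosen by name, with earlier results of these data known. Every array probe whose transcript accession belongs to one of them in RefSeq was taken. This gave 18 of the 56583 probes with a value on every array. All 18 probes passed the filter on dim spots, so that the 10 genes were among the 25005 genes and transcripts tested.

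Quadriceps RNA came from male AR97Q mice at 9 weeks of age, 3 samples in the exercise group and 3 in the sedentary group. AR97Q mice, in which spinal and bulbar muscular atrophy is modelled, carry a human androgen receptor transgene with 97 CAG repeats and were kept on a C57BL/6J background. All 6 samples carried the transgene, and non-transgenic muscle is not analysed here. Mice of the exercise group ran in a forced wheel at 5 m/min for 60 min a day, 5 days a week, from 5 weeks of age for 4 weeks, and muscle was taken on the day after the last run, whereas the sedentary mice were not trained.

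In adult muscle the receptor is a pentamer of alpha, beta, delta and epsilon subunits that lies almost entirely under the motor nerve terminal. In embryonic muscle the gamma subunit takes the place of epsilon, and after loss of the nerve the alpha, beta, gamma and delta subunit genes are transcribed along the whole fibre. Agrin from the motor axon binds Lrp4, which activates the kinase Musk. Dok7 is the cytoplasmic activator of Musk, rapsyn (Rapsn) anchors the receptors in clusters, and acetylcholinesterase ends each signal by cleaving acetylcholine.

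Transcription of the subunit genes is known to depend on myogenic factors that bind E-boxes (CANNTG), and synapse-restricted transcription on ETS-family factors that bind an N-box (CCGGAA). The bases before the RefSeq start of 3 subunit genes that fell after exercise and of Chrne, which did not, are therefore shown, from the GRCm38.p6 build. Each is written in the direction of the gene, and capitals mark an E-box or an N-box. They are Chrng (chr1:87205561-87205810, plus strand), Chrna1 (chr2:73580339-73580588, minus strand), Chrnb1 (chr11:69795967-69796187, minus strand) and Chrne (chr11:70619214-70619444, minus strand).
Chrng: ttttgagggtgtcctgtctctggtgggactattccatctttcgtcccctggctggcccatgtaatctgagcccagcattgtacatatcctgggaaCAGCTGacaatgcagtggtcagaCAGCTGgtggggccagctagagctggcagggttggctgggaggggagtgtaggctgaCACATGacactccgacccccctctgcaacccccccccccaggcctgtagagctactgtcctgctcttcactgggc
Chrna1: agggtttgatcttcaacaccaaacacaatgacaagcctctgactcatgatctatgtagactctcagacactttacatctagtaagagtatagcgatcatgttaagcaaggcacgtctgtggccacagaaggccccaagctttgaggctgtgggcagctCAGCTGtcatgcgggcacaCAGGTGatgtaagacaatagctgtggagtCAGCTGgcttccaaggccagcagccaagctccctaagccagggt
Chrnb1: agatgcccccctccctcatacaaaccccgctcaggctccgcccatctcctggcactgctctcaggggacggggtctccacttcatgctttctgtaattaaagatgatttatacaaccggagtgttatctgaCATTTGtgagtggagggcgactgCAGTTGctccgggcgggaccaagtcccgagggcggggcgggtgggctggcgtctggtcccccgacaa
Chrne: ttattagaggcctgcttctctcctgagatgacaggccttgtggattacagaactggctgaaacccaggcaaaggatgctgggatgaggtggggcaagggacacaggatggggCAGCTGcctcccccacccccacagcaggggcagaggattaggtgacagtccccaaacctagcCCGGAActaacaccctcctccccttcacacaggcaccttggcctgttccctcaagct
RefSeq windows of 300 bases, 250 before and 50 after a start site, were at hand for 7 of the 10 genes, and both strands were searched. Dok7 has a pair of windows, which makes 8 windows. CANNTG occurred in 7 of the 8 windows, all but the second of Dok7, and in 72.3% of all 32851 windows of the table. Its form CAGCTG, which is also counted under CANNTG, occurred in 4 of the 8 windows (Chrna1, Chrne, Chrng and Musk) and in 16.3% of all windows. Chrng and Chrna1 each held 2 matches of CAGCTG, Chrne and Musk 1 each. CCGGAA occurred in 1 of the 8 windows, that of Chrne, and in 14.9% of all windows. A match describes the letters of the window and was not tested as a binding site, and the third E-box of Chrnb1 lies in the bases next to the start that are not printed.

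The arrays measured the brightness of spots with a single dye, and a value here is the log2 of the authors' processed signal minus the 75th percentile of its array. That percentile was 251 to 257 on the exercise arrays and 310 to 384 on the sedentary arrays, and 54.6 to 59.9% of probes per array stood well above background. All 6 arrays shared 1 slide, which holds 2 strips. The 3 exercise arrays and that of sedentary sample 1 lay in one strip, and sedentary samples 2 and 3 in the other, so differences are also given against sedentary sample 1 alone (within the strip), a value with no test. The muscle fibre markers Acta1, Ckm, Mb, Des, Ttn, Myh4, Myh1, Tnnt3, Tnni2 and Mylpf were all well above background on all arrays.

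Of the 10 genes, 6 were lower in the exercise group with a limma adjusted p under 0.05, namely Chrng, Chrnd, Chrna1, Chrnb1, Musk and Lrp4. Over all 25005 genes the share called lower was 6.15%. As the 10 genes were chosen with earlier results of these data known, this contrast is a description and not a test. None of the 10 was called higher (limma), against 11.5% of all genes, although Chrne and Ache were higher at an unadjusted p under 0.05, as were 21.6% of all genes, with 15.4% lower. A fall of at least 1 on the log2 scale in addition was seen for 4 genes, the subunits Chrng, Chrnd, Chrna1 and Chrnb1, against 1.06% of all genes. In bulk muscle, fewer cells of a type and less RNA per cell cannot be told apart. The median log2 fold change was -0.75 for the 10 genes and 0.03 for all genes tested. Every exercise array lay under every sedentary array for 6 of the 10 genes (18.2% of all genes), and over every one for 2, Chrne and Ache (25% of all genes).

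The 6 calls did not hold when single arrays were left out. Without exercise sample 1, 2 or 3, or without sedentary sample 2 or 3, limma called 0 of the 10 genes, and at most 1 of all genes, although 7 of the 10 had an unadjusted p under 0.05 in each of these fits, against 26.7 to 32.6% of all genes. Without sedentary sample 1 the number lower was 6, against 8.25% of all genes. With strip as a blocking factor 0 of the 10 genes and 3 of all genes were called, and 6 of the 10 had an unadjusted p under 0.05, against 19.3% of all genes. Strip and group are therefore told apart by 1 sedentary array only, and within the strip each of the 6 genes was lower after exercise by less than in the comparison of all arrays.

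**Figure D1:**
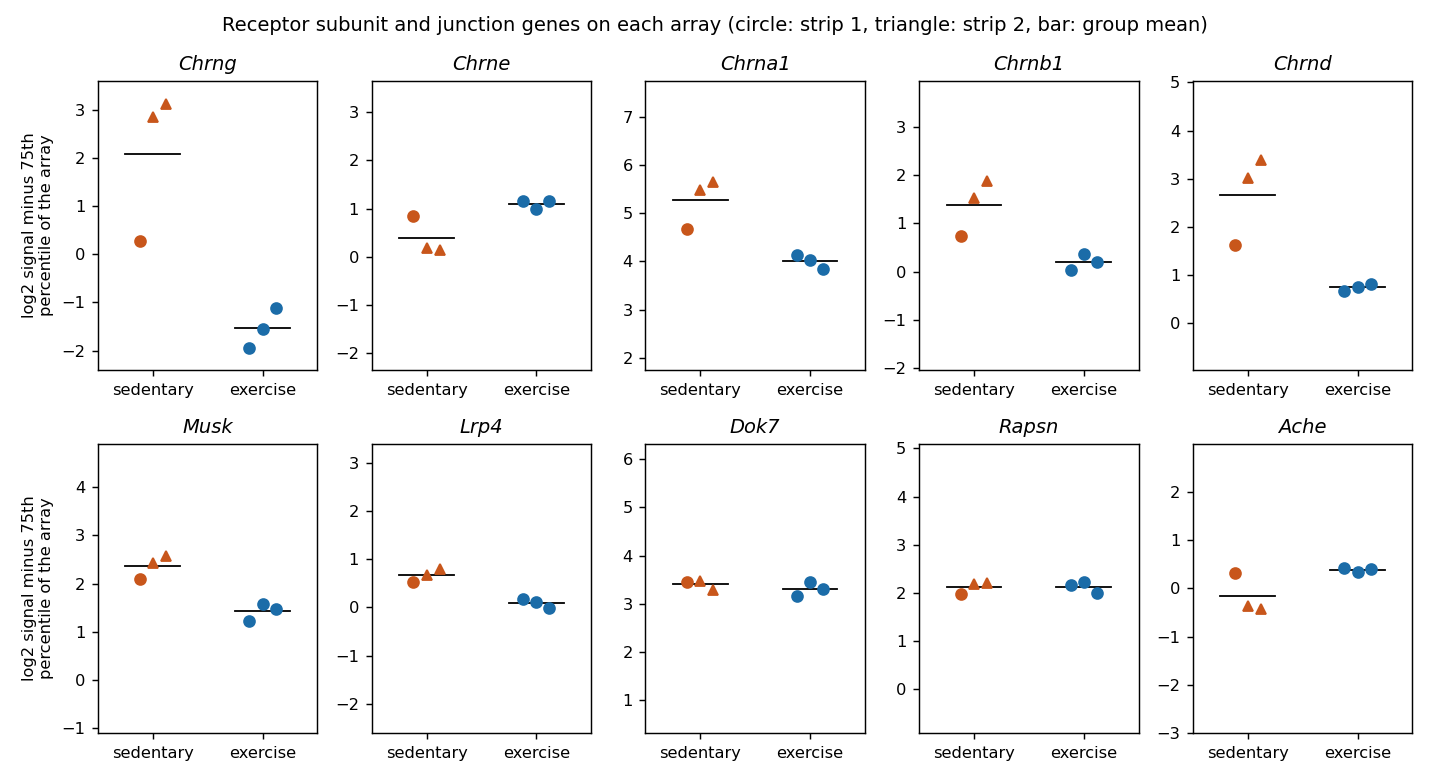
Values of the 10 genes on each array (y axis, log2 signal minus the 75th percentile of the array, 6 units high in every panel) by group, with circles for arrays in the strip that holds the exercise arrays, triangles for the other strip and bars for group means. The subunits Chrng, Chrnd, Chrna1 and Chrnb1 were lower on all exercise arrays, Chrne and Ache were higher, Dok7 and Rapsn overlapped, and sedentary sample 1 was the sedentary array nearest to the exercise group in all 8 genes whose groups did not overlap.

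Chrng, the embryonic gamma subunit, had the second lowest log2 fold change of all genes tested. Its values were -1.94, -1.56 and -1.11 in exercise samples 1 to 3 and 0.28, 2.84 and 3.12 in sedentary samples 1 to 3. All exercise values lay below all sedentary values, and sedentary sample 1 lay between the exercise group and the other two sedentary samples. The mean was -1.54 ± 0.42 (SD, n = 3) after exercise and 2.08 ± 1.57 (SD, n = 3) in the sedentary group, a 12.3-fold lower signal (log2 fold change -3.62, standard error (SE) 0.75, limma adjusted p = 0.0304). Within the strip the difference was -1.82. Both probes of Chrng are assigned to the same transcript, and the second, dimmer one was well above background on none of the exercise arrays. It passed the filter on dim probes only through the sedentary arrays, and this filter favours such a difference. The second probe was at least 3.81-fold lower after exercise, where each exercise value was raised to the lowest signal well above background on its array. Its limma adjusted p over all probes was 0.0709. Its sedentary values were -4.33, -1.77 and -1.49, and the limits on exercise arrays 1 to 3 were -4.44, -4.48 and -4.45. Within the strip its difference was -0.71, with exercise values not raised to these limits. Sedentary sample 1 lay close to the limits, so the size of a fall within the strip cannot be read from this probe.

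Chrnd, the delta subunit, lies next to Chrng on the chromosome, with no other gene of the RefSeq table between them. Its values were 0.67, 0.76 and 0.82 after exercise and 1.62, 3.02 and 3.38 in the sedentary samples. The exercise samples thus lay within a narrow range, whereas the sedentary samples were spread over more than 1 log2 unit, with sample 1 the lowest. The log2 fold change was -1.92 (SE 0.44, limma adjusted p = 0.0360), a 3.79-fold lower signal, and the difference within the strip was -0.87.

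Chrna1, the alpha subunit that carries most of the acetylcholine binding site, had values of 4.13, 4.04 and 3.84 after exercise and of 4.67, 5.48 and 5.65 in the sedentary samples. The groups did not overlap, and the log2 fold change was -1.27 (SE 0.26, limma adjusted p = 0.0303), a 2.41-fold lower signal. Within the strip it was -0.67. Chrnb1, the beta subunit, through which rapsyn is thought to hold the receptor, had values of 0.03, 0.37 and 0.20 after exercise and of 0.73, 1.53 and 1.88 in the sedentary samples. It was 2.26-fold lower (log2 fold change -1.18, SE 0.29, limma adjusted p = 0.0429), again with no overlap and with sedentary sample 1 nearest to the exercise group, and the difference within the strip was -0.53. The call of Chrnb1 was narrow, with an adjusted p of 0.0517 after quantile normalization and of 0.0505 without the filter on dim probes.

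Chrne, the adult epsilon subunit, was the only subunit of the 5 with a higher mean after exercise. Its values were 1.16, 0.98 and 1.16 after exercise and 0.85, 0.18 and 0.13 in the sedentary samples, so the groups did not overlap. The log2 fold change was 0.71 (SE 0.21, 95% confidence interval 0.21 to 1.21), and it did not pass the threshold (limma adjusted p = 0.0617). Within the strip the difference was 0.25. Over the 20 alternatives with a test, its adjusted p ranged from 0.00935 without sedentary sample 1 to 0.349 with strip as a blocking factor.

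The embryonic and the adult subunit were then set against each other within each array, which removes any scaling by 1 factor per array and describes unequal change, not their relative amounts. The log2 value of Chrng minus that of Chrne was -3.10, -2.54 and -2.27 after exercise and -0.57, 2.66 and 2.99 in the sedentary samples. The exercise arrays lay below the sedentary ones, and sedentary samples 2 and 3 lay apart from sample 1. The mean was -2.64 ± 0.42 (SD, n = 3) after exercise and 1.69 ± 1.97 (SD, n = 3) in the sedentary group, a difference of -4.33 (two-sided exact permutation p = 0.1, the smallest that 3 arrays against 3 can give). Within the strip the difference was -2.06.

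**Figure D2:**
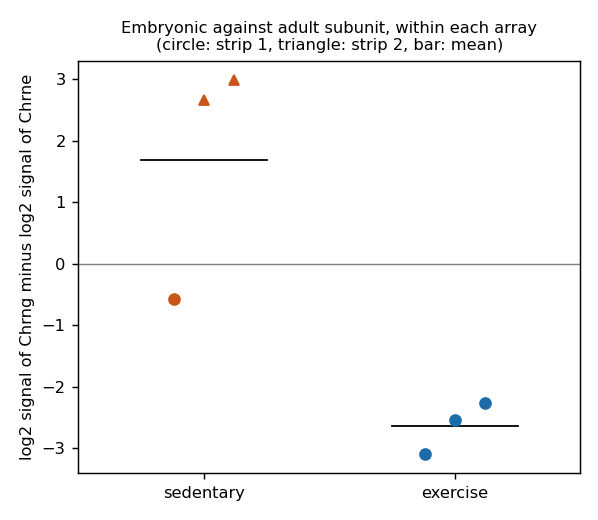
The log2 signal of Chrng minus that of Chrne (y axis, log2 units) on each array by group, with circles for the strip that holds the exercise arrays, triangles for the other strip and bars for the means. The exercise arrays sit between -3.10 and -2.27, the sedentary arrays at -0.57, 2.66 and 2.99.

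Of the organisers, Musk and Lrp4 fell. Musk, the receptor tyrosine kinase at the centre of the agrin pathway, had values of 1.23, 1.57 and 1.47 after exercise and of 2.11, 2.42 and 2.57 in the sedentary samples. It was 1.92-fold lower (log2 fold change -0.94, SE 0.15, limma adjusted p = 0.0239), and within the strip the difference was -0.68. Its second probe, assigned to another transcript, read -2.96, -2.98 and -3.08 after exercise and -2.17, -1.31 and -0.98 in the sedentary samples, a log2 fold change of -1.52 (SE 0.29, limma adjusted p over all probes = 0.0278). The exercise samples of both Musk probes lay below all sedentary samples.

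Lrp4, the agrin receptor, had values of 0.18, 0.12 and -0.01 after exercise and of 0.52, 0.67 and 0.80 in the sedentary samples with its brightest probe, a 1.48-fold lower signal (log2 fold change -0.57, SE 0.11, limma adjusted p = 0.0265). The difference within the strip was -0.42. The 4 probes of Lrp4 split by the transcript accession they carry. The second probe of the same accession had a log2 fold change of -0.46 (SE 0.17, adjusted p = 0.108) with no overlap between the groups, whereas both probes of the other accession overlapped between the groups, with log2 fold changes of 0.03 (SE 0.12) and 0.11 (SE 0.15). With the mean of the 4 probes in place of the brightest one, Lrp4 was not called (log2 fold change -0.22, adjusted p = 0.189).

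Dok7 and Rapsn did not pass the test, and their groups overlapped. Dok7 had values of 3.17, 3.46 and 3.31 after exercise and of 3.45, 3.47 and 3.28 in the sedentary samples (log2 fold change -0.09, 95% confidence interval -0.36 to 0.18, limma adjusted p = 0.591), and its other probes had log2 fold changes of 0.01 (SE 0.23) and 0.13 (SE 0.14). Rapsn had values of 2.17, 2.22 and 2.01 after exercise and of 1.98, 2.19 and 2.20 in the sedentary samples (log2 fold change 0.01, 95% confidence interval -0.25 to 0.27, limma adjusted p = 0.955). The sign of Rapsn turned with the scaling between arrays. Under other scalings Dok7 ran from -0.56 without scaling to 0.00021 with array medians. Without scaling Dok7 was called lower (limma adjusted p = 0.0189), as were 45.1% of all genes.

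Ache had values of 0.43, 0.33 and 0.41 after exercise and of 0.31, -0.36 and -0.43 in the sedentary samples. Every exercise value was above every sedentary value, but that of sedentary sample 1 lay only just below the exercise group. The log2 fold change was 0.55 (SE 0.20, 95% confidence interval 0.05 to 1.04) and did not pass the threshold (limma adjusted p = 0.109), and within the strip it was 0.08. The second probe, for which the groups overlapped, had a log2 fold change of 0.47 (SE 0.24, adjusted p = 0.218).

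**Figure D3:**
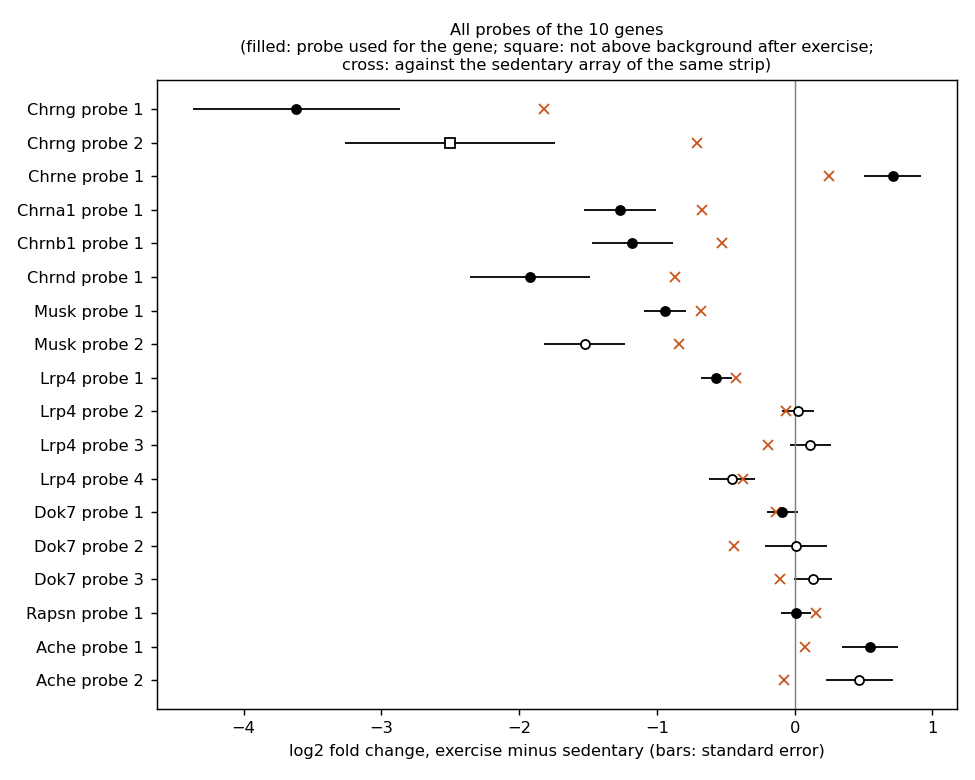
Log2 fold change of exercise minus sedentary (x axis, log2 units) for the 18 probes of the 10 genes, with bars for the standard error, filled symbols for the probe that stands for its gene, a square for the Chrng probe that was well above background on none of the exercise arrays, and crosses for the difference against sedentary sample 1. The exercise arrays were entirely below the sedentary ones for 9 probes, above for 2, and overlapped for 7. Probes of the same gene are not independent, and the share over all probes was not computed. By gene, 18.2% of all genes lay entirely below and 25% entirely above.

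The spread differed between the groups as well. In 9 of the 10 genes, and in 6 of the 6 that were called, the SD was larger among the sedentary than among the exercise samples. Of the 8 genes whose groups did not overlap, sedentary sample 1 was the nearest to the exercise mean in 8 and sedentary sample 3 the farthest in 8. These counts were not made over all genes, so they cannot be called particular to the 10 genes. Sedentary sample 1 also had the lowest limma array weight (0.45), which is fitted over all genes.

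**Figure D4:**
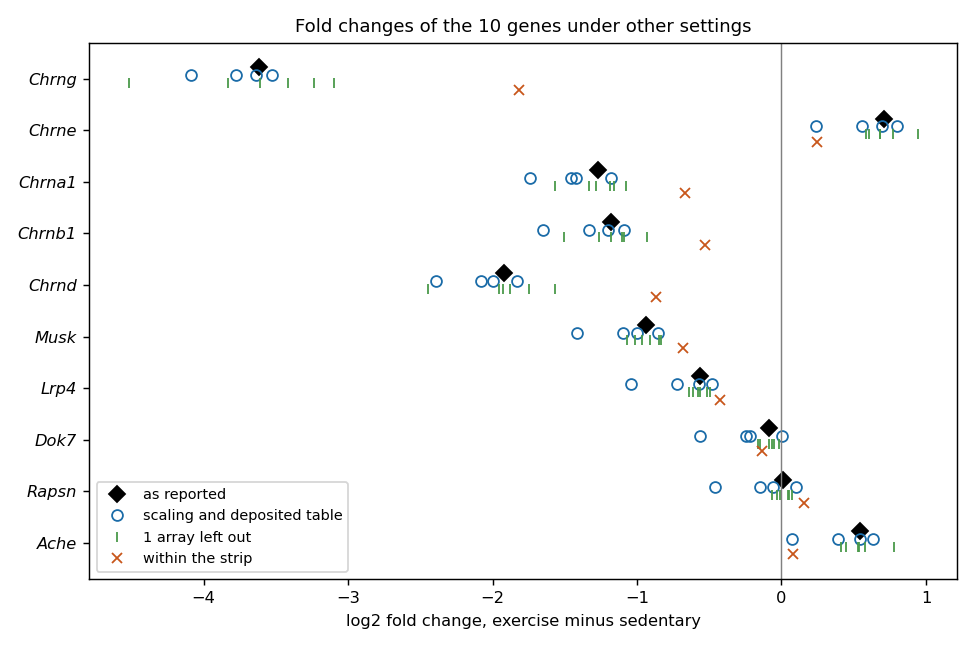
Log2 fold change of exercise minus sedentary (x axis, log2 units) of the 10 genes as reported (diamonds), under other scalings and with the deposited table (open circles), with 1 array left out (ticks) and against sedentary sample 1 alone (crosses). Chrng ran from -4.52 without sedentary sample 1 to -1.82 within the strip. Rapsn lay on both sides of 0, and Dok7 ran from -0.56 without scaling to 0.00021 with array medians.

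Other genes of the junction were taken from 8 lists with 96 genes, with 87 tested. After exercise 11 were higher and 5 lower with a limma adjusted p under 0.05, against 11.5% and 6.15% of all genes, and the median log2 fold change was -0.07. These counts moved with the scaling, and with the array signals left unscaled 5 were higher and 55 lower, where 2.47% and 45.1% of all genes were. The counts called in single lists below also stand against 11.5% and 6.15% of all genes.

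Of 11 nicotinic subunits known from neurons and other tissues, 4 were tested, and 2 were higher. Chrna2 had values of 0.54, 0.32 and 0.58 after exercise and of -0.89, -1.36 and -1.55 in the sedentary samples (log2 fold change 1.75, SE 0.19, limma adjusted p = 0.0234). Chrna10 was dim, well above background on all 3 exercise arrays but on 1 of the 3 sedentary arrays, so that its sedentary values lie near the limit of detection. It had a log2 fold change of 0.91 (SE 0.15, adjusted p = 0.0239). Neither of the others was called, with log2 fold changes of -1.72 (SE 0.53, adjusted p = 0.0707) for Chrna9 and 0.42 (SE 0.26, adjusted p = 0.291) for Chrnb4.

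Among 20 genes of agrin signalling and the postsynaptic scaffold, 2 were higher and 0 lower in the limma fit. At an unadjusted p under 0.05, 4 were higher and 5 lower, against 21.6% and 15.4% of all genes. Dnaja3, a Musk-binding co-chaperone, rose by 0.43 on the log2 scale (SE 0.09, adjusted p = 0.0289). Its other kept probe was not called (log2 fold change 0.29, SE 0.37, limma adjusted p over all probes = 0.614). The ligand agrin (Agrn) had values of 2.72, 2.86 and 2.81 after exercise and of 3.37, 3.11 and 2.88 in the sedentary samples, without overlap but not called (log2 fold change -0.32, SE 0.14, adjusted p = 0.149). Utrophin (Utrn), which links the postsynaptic membrane to actin, was not called either (log2 fold change -0.31, SE 0.10, adjusted p = 0.0818).

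In the synaptic basal lamina, 0 of 15 genes were called by limma. At an unadjusted p under 0.05, 0 were higher and 3 lower, against 21.6% and 15.4% of all genes. Colq, the collagen tail that anchors acetylcholinesterase, had values of 2.11, 2.15 and 2.06 after exercise and of 1.79, 1.45 and 2.13 in the sedentary samples, which overlapped (log2 fold change 0.32, SE 0.18, adjusted p = 0.237). Of 11 receptor glycosylation and assembly genes 0 were called, with 0 higher and 2 lower at an unadjusted p under 0.05. Of 8 receptor turnover genes 0 were called, with 3 higher and 1 lower at that threshold. The same shares of all genes, 21.6% and 15.4%, stand beside these counts. The medians of the assembly and turnover genes were -0.12 and -0.06.

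Of 8 genes of synaptic transcription, 2 were higher and 1 lower. The ETS factor Etv4 rose by 0.94 (SE 0.17, adjusted p = 0.0255) and neuregulin 1 (Nrg1) by 0.47 (SE 0.08, adjusted p = 0.0239) on the log2 scale, whereas the neuregulin co-receptor Erbb2 had a log2 fold change of -0.56 (SE 0.11, adjusted p = 0.0281). The other kept probes of Nrg1 (0.24, SE 0.12, limma adjusted p over all probes = 0.213) and Erbb2 (-0.34, SE 0.15, adjusted p = 0.164) had smaller changes and were not called. Etv5, an ETS factor needed at the junction, had a log2 fold change of 0.11 (SE 0.10, adjusted p = 0.496), and the neuregulin receptor Erbb3 one of -0.31 (SE 0.16, adjusted p = 0.201).

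Of 11 regulators that link muscle activity to the receptor genes, 2 were higher and 2 lower. Runx1, a transcription factor induced by denervation, had values of 0.56, 0.34 and 0.58 after exercise and of 1.14, 2.03 and 2.18 in the sedentary samples (log2 fold change -1.29, SE 0.28, adjusted p = 0.0323), and all 3 of its probes were lower. Hdac4, which represses the repressor Dach2 in denervated muscle, had values of 0.22, 0.12 and 0.59 against 0.88, 1.09 and 0.86 (log2 fold change -0.63, SE 0.15, adjusted p = 0.0375). Of the 5 probes of Dach2, 1 passed the filter on dim probes. That probe was well above background on none of the sedentary arrays and passed the filter only through the exercise arrays. It was at least 2.72-fold higher after exercise (adjusted p = 0.0239), a difference that this filter favours. Hdac9, a repressor of receptor gene transcription, rose by 0.44 on the log2 scale (SE 0.09, adjusted p = 0.0292). Myogenin (Myog), a myogenic factor that binds E-boxes of the subunit genes, had values of 1.28, 1.06 and 1.47 after exercise and of 1.66, 2.81 and 2.89 in the sedentary samples. Its groups did not overlap, but it was not called (log2 fold change -1.19, SE 0.34, adjusted p = 0.0603).

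Of 10 other membrane proteins of the junction and of the fibre outside it, 3 were higher and 2 lower. Scn4a, the sodium channel of adult muscle, overlapped between the groups (log2 fold change 0.24, SE 0.12, adjusted p = 0.206). Ncam1, an adhesion molecule that spreads along the fibre after denervation, had a log2 fold change of -0.77 (SE 0.13, adjusted p = 0.0239). Cd24a, a small surface glycoprotein, rose by 1.75 (SE 0.27, adjusted p = 0.0234), Art1, an ADP-ribosyltransferase of muscle, by 0.77 (SE 0.19, adjusted p = 0.0429), and the adhesion molecule Cadm1 by 0.49 (SE 0.11, adjusted p = 0.0376) on the log2 scale.

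**Figure D5:**
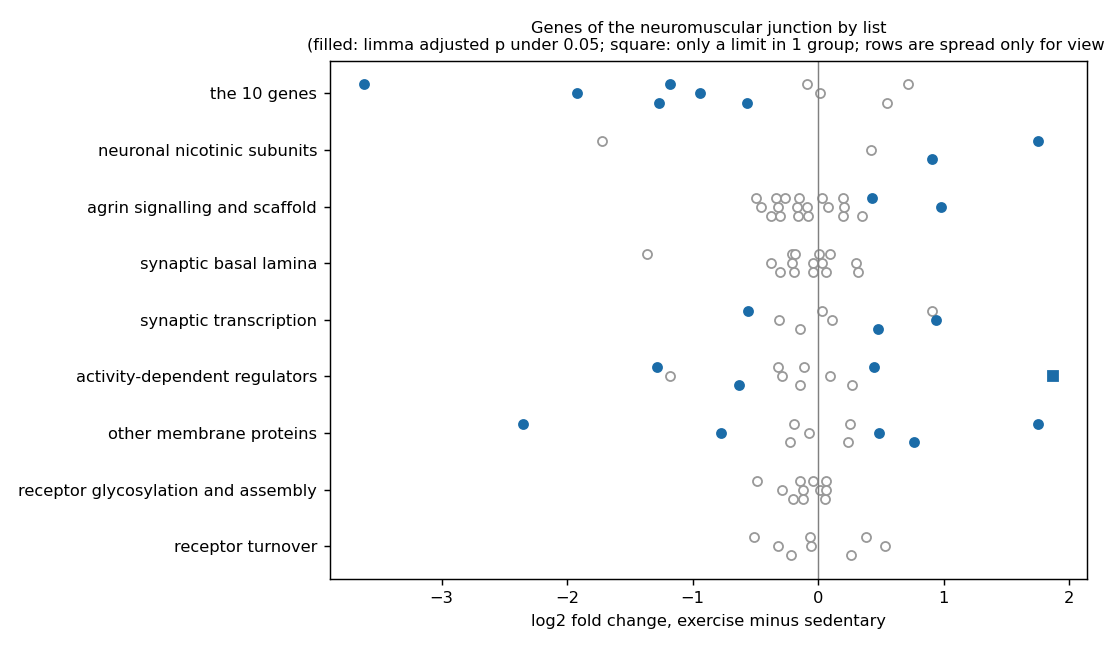
Log2 fold change of exercise minus sedentary (x axis, log2 units) of each tested gene of the 10 genes and of 8 lists of junction genes, 1 row per list, filled where the limma adjusted p was under 0.05 and square for Dach2, which has only a limit in the sedentary group. The 10 genes reach to -3.62, and the basal lamina, glycosylation and turnover genes hold no filled symbol.

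Markers of the cell types in muscle were examined as well, beside 11.5% of all genes called higher and 6.15% called lower. Of the 10 muscle fibre markers 7 were higher after exercise, and the log2 of their summed signal was 12.55 to 12.72 after exercise and 11.58 to 12.06 in the sedentary samples. Of 6 tested satellite cell markers 1 was lower, Pax7 (log2 fold change -0.60, adjusted p = 0.0255), and the summed signal was 3.44 to 3.61 after exercise and 3.78 to 4.06 in the sedentary samples. Of 9 tested Schwann cell markers 1 was lower, with overlapping sums of 5.49 to 5.78 and 5.68 to 6.07. Of 12 motor axon and terminal markers 8 were tested, and Nefl, Slc5a7, Syt1 and Syt2 did not pass the filter on dim probes. Nefh was at least 1.48-fold lower (adjusted p = 0.0234), but 1 of its 2 probes passed that filter, and only through the sedentary arrays. The sums overlapped (5.60 to 6.37 and 5.93 to 6.67). Of 6 smooth muscle markers 1 was higher and 2, Myh11 and Lmod1, were lower, and for the one that was higher, Acta2 (log2 fold change 1.32), both other probes were lower (-0.89 and -0.80). Of the 6, 4 had lower means after exercise (median -0.64), and their summed signal, 8.53 to 8.78 after exercise and 7.51 to 7.83 in the sedentary samples, follows the brightest Acta2 probe. Of 7 adipocyte markers 1, Lep, was higher, and the other 6 had lower means that did not pass the test (median of the list -0.78). Of the rest, 0 of 8 fibroblast, 0 of 7 endothelial, 0 of 7 macrophage and 0 of 4 red blood cell markers were called by limma, with 0 of them at an unadjusted p under 0.05. The part of these cells in the values of the 10 genes was not tested.

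The genes most like Chrng, Chrne and Musk over the 6 arrays were sought among 14716 named genes well above background on all arrays, as a description without a test. All points share the 6 arrays and the same difference between groups, and 550, 699 and 402 genes had a Pearson correlation above 0.95 with Chrng, Chrne and Musk. Most like Chrng was Nrcam, a neuronal cell adhesion molecule (r = 0.999, log2 fold change -1.78), followed by Enpp5, Armcx2, Pgm3 and Parp4. Most like Chrne was Ppp5c (r = 0.998), followed by Nrep, Arhgap17, Cfap52 and Camk2a. Most like Musk was Aida (r = 0.998), followed by Sf3b2, Tug1, Mis12 and Arfgap3.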

How the data were processed

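Quadriceps RNA of 3 exercise and 3 sedentary samples (RNA integrity number 8.4 to 9.2, per the labels) was labelled with Cy3 and hybridized to Agilent SurePrint G3 mouse arrays. The authors deposited the output of Feature Extraction 12.1.0.3, in which the processed signal is an intensity on a linear scale after background subtraction, and a table of values that is this intensity multiplied by 1 factor per array (1.33 to 1.88), whose making is not given in the sources used here. The number of arrays limits the precision.

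From the deposited intensities, log2 was taken, control and outlier spots were left out, replicate spots were averaged and values were centred on the 75th percentile of the array. Probes missing on any array (22) were dropped, and those well above background on at least 3 of 6 arrays were kept (32726). Accessions were matched to a RefSeq table of GRCm38.p6, which named 34551 probes (22032 kept the file's identifier). The brightest probe stood for a gene. The comparison used limma 3.58.1 under R 4.3.3 (two-sided, Benjamini-Hochberg over all 25005 genes and transcripts, no covariate), after tests on simulated arrays. The methods give 3 mice per group, taken here as 1 mouse per array.

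The 10 genes and all lists were chosen with earlier results of these data known. Named from a list were the 3 largest changes past the threshold, all genes of a list with 5 or fewer tested, and fixed genes (Agrn, Colq, Utrn, Erbb3, Etv5, Myog, Hdac4, Dach2, Ncam1, Scn4a), of which some are not reported here. Hdac9, Art1 and Cadm1 were named after their values were seen. Genes of marker lists were named from the 2 brightest and the 2 largest changes, with Myh11, Lmod1, Lep and undetected markers named after their values were seen. A limit ("at least") sets the bright group's mean against the dim group's, with dim values raised to the lowest signal well above background on their array. Promoter windows are those of RefSeq. Alternatives were other scalings, normexp (offset 50), other filters and probe rules, the deposited table, blocks, weights, eBayes with trend and robust, and each array left out.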

Additional observations from a re-analysis of the deposited data

How the results depend on the processing

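The number of the 10 genes called lower (6) was between 4 and 7 under other scalings, filters, probe rules, weights, the deposited table and the added fold minimum. The share of all genes called lower moved as well, from 3.49% with array medians to 45.1% without scaling. The latter gave the 7, with Dok7 in addition (limma adjusted p = 0.0189). The share was 12.8% with the deposited table, 14.6% with array weights and 1.06% with the fold minimum. The number of the 10 called lower was 0 with the replicate block, where 0 of all genes were called, and 0 with the strip as a block. With the replicate block 8 of the 10 had an unadjusted p under 0.05, against 34.3% of all genes. With 1 array left out the number lower was 0 to 6, against 0 to 8.25% of all genes. Same-numbered samples share only a number (correlations of their deviations 0.02, 0.08 and 0.04). The number called higher (0) was 1 with normexp background, the filter on all arrays, and eBayes with trend and robust (Chrne in each case). The shares of all genes called higher there were 24.5%, 15% and 14.9%. With array weights the number was 2 (Chrne and Ache), against 20.5% of all genes. With 1 array left out it was 0 to 2, against 0 to 13.9% of all genes. The replicate block changed the exact p of Chrng minus Chrne to 0.25, the smallest that 3 pairs can give.

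Without scaling the median of all genes moved to -0.45, with array medians to 0.11 and with the deposited table to -0.13. These scalings apply 1 factor per array, so values relative to the median are equal by construction (Chrng -3.64, Chrna1 -1.29). With quantile normalization they were -3.62 and -1.44. With quantile normalization, no scaling and the deposited table, 10, 55 and 17 of 87 junction list genes were lower. The shares of all genes called lower were 5.45%, 45.1% and 12.8%. They were 5 higher without scaling, 7 with the deposited table and 17 without a filter. Rapsn turned sign with quantile normalization (-0.062), no scaling (-0.46), normexp (-0.054), the deposited table (-0.15) and array weights (-0.034), and ranged from -0.063 to 0.073 with 1 array left out. Dok7 turned sign with array medians (0.00021), the probe of largest SD (0.012) and the mean of the probes (0.019). The causes were not tested.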
